A study of Mus musculus with 47 samples.

Results

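The 6 genes Lck, Fyn, Zap70, Lat, Lcp2 and Prkcq encode the first enzymes and scaffolds that act when the T-cell receptor, or the pre-T-cell receptor of thymic precursors, is engaged. They were chosen by symbol, as 6 of the 17754 genes in the deposited expression table, each with 1 Ensembl identifier, and were followed across all 47 labelled libraries of mouse T-cell precursors. Lck and Fyn are Src-family tyrosine kinases that phosphorylate the signalling tails of the CD3 and zeta chains. Zap70, a Syk-family kinase, binds those phosphorylated tails and in turn phosphorylates the membrane adaptor LAT and the cytosolic adaptor SLP-76 (gene Lcp2), which together gather phospholipase C gamma and other effectors. Diacylglycerol made by the phospholipase then recruits protein kinase C theta (gene Prkcq), which leads to NF-kappa B and AP-1. In the thymus this machinery is assembled while precursors pass from the double-negative stage DN2a, where cells have high Kit and are not yet committed, through DN2b to DN3, where the pre-T-cell receptor is first used.

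The study measured RNA-seq expression in precursors with and without Bcl11b, a transcription factor required for T-lineage commitment. In the main comparison, precursors from E13.5 fetal liver of Bcl11b fl/fl or control C57BL/6 embryos, some of each carrying a ROSA26R-YFP reporter, all received a Cre retrovirus, so that the controls carried Cre as well. They were cultured on OP9-DL1 or OP9-DL4, bone marrow stromal lines that present the Notch ligands Delta-like 1 or Delta-like 4. Standard cultures held IL-7 at 5 ng/ml, and some early cultures had reduced IL-7. Knockout libraries numbered 8 on OP9-DL1 and 6 on OP9-DL4, and control libraries 8 and 3. By the protocol, knockout cells were sorted on the DN2a phenotype and control cells on the DN2b phenotype, but the titles differ from this. They give DN2a for 8 knockout libraries, DN2 for 5 and DN2b for 1, and DN2b for 8 controls and DN2 for 3. In most of this comparison deletion and sorted phenotype therefore cannot be told apart, and 4 pairs with equal stages in their titles are given separately. Unmanipulated fetal liver cultures on OP9-DL1 gave 4 DN2a and 2 DN2b libraries (DN2b replicate 1 and its treated partner are titled DN3), and 2 further libraries of each stage received 1 µM GSI, an inhibitor of gamma-secretase that keeps Notch from being cleaved and activated, for the last 12 h. Day 12 cultures on OP9-DL1 received an empty vector (1 control and 1 knockout library) or a vector for the exon 1-2-4 isoform of Bcl11b (1 knockout library) 36 h before harvest. Bone marrow precursors with a Cre-ERT2 transgene, wildtype or floxed at Bcl11b and induced with tamoxifen, gave 1 library each on OP9-DL4. From the thymus came 2 libraries of fresh DN3 cells with undeleted Bcl11b and a Cre-ERT2 transgene (1 also floxed at Bcl11b), 2 control libraries of such DN3 cells and 1 knockout library treated with 100 nM 4-OH tamoxifen and cultured on OP9-DL4 for 3 or 4 days, and 1 control and 1 knockout library in which LckCre was active in vivo. LckCre is driven by the promoter of Lck, itself 1 of the 6 genes, and its knockout library is labelled DN2 while its control is labelled DN3.

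Libraries are named by group and by a number given in order of deposition. Nothing in the labels says that libraries came from separate animals, and 3 control and 5 knockout libraries on OP9-DL1 have title dates and days that fit 1 control and 2 knockout start dates. They were read as repeated harvests of those cultures, which no label states, so p-values measure only the spread between these libraries. The unit is FPKM (fragments mapped per kilobase of transcript, scaled to the library's mapped total), the lowest value in the table is a floor of 0.1, and read depth is unknown. Bcl11b itself ranged from 8.77 to 37.9 FPKM (median 25.1) in the 14 fetal liver knockout libraries and from 16.9 to 84.4 FPKM (median 54.5) in the 11 controls, so the ranges overlapped. Whether RNA of a deleted allele is still counted in these values was not tested. The precursor markers Ptprc, Il2ra, Il7r, Tcf7, Gata3 and Notch1 summed to between 691 and 1810 FPKM in all 47 libraries, and the B-cell marker Cd79a stayed under 1 FPKM in each. The sum does not show each marker, since Il7r was at the 0.1 floor in at least 1 untreated DN2a library. In these bulk samples, fewer cells expressing a gene and less RNA of it per cell cannot be told apart.

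Promoter sequence is shown for Lck, Lat and Zap70, whose levels were the most closely correlated of the 6 across the libraries. Each is the 250 bases before a RefSeq transcription start on build GRCm38.p6, written 5′ to 3′ on the gene's strand. RefSeq listed 2 starts for Lck and 3 for Zap70, and both Lck windows and the most upstream Zap70 window are given. Capitals mark matches on either strand to 6 words, none of which overlap in these windows. They are the ETS core GGAAGT, the RUNX core TGTGGT, the TCF core CTTTGA, the GATA core AGATAA, a first E-box CAGCTG and a second E-box CAGGTG.
Lck upstream start, chr4:129573642-129573891, minus strand: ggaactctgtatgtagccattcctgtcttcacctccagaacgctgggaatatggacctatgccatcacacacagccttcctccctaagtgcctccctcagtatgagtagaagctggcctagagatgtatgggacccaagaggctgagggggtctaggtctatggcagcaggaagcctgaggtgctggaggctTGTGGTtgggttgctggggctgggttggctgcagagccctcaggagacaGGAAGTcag
Lck downstream start, chr4:129558373-129558622, minus strand: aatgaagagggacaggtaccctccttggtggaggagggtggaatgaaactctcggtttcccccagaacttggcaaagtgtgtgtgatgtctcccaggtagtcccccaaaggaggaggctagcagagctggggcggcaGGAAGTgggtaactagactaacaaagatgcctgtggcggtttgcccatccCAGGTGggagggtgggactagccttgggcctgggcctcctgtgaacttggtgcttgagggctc
Lat, chr7:126369569-126369818, minus strand: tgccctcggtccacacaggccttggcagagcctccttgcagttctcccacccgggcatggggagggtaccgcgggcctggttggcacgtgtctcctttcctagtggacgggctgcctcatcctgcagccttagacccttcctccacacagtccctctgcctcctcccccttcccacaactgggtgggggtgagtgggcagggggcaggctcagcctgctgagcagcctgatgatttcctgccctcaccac
Zap70 upstream start, chr1:36761548-36761797, plus strand: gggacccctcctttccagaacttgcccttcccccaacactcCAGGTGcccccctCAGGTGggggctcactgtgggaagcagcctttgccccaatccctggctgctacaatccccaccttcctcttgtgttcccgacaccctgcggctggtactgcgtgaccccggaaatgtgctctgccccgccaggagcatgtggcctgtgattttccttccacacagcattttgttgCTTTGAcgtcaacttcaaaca
Over 32851 RefSeq windows of this length, the ETS word was present in 19.7%, the RUNX word in 14%, the TCF word in 13.8%, the GATA word in 9.99%, the first E-box in 13% and the second in 17.2%. The 2 Lck windows each held 1 ETS match. The upstream window also held the RUNX match and the downstream window the second E-box. The Zap70 window held the second E-box at 2 places and the TCF word at 1 place, and the Lat window held none of the 6 words. Over all 9 windows of the 6 genes, the ETS and TCF words and the second E-box were each in 3, the RUNX word in 2, and the GATA word and the first E-box in 1 each, both before Lcp2. These are letter matches only, and binding was not measured here.

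The 6 genes differed in level and even more in how far they varied. Lck was the most abundant, with 96.8 to 984 FPKM (median 353) over the 47 libraries, above the median of 98.6% of genes in the table. Lat had a median of 154 FPKM and ran from the 0.1 floor to 624 FPKM, and Zap70, the least abundant at a median of 7.47 FPKM, ran from the floor to 74.1 FPKM. Fyn, Lcp2 and Prkcq moved within a narrow band. Fyn lay between 23.2 and 55.3 FPKM (median 36), Lcp2 between 22.2 and 95.3 (median 46.2) and Prkcq between 9.6 and 50.9 (median 33.3). With floor values included, the SD of log2(FPKM + 1) over the libraries was 2.04 for Lat, 1.63 for Zap70 and 0.71 for Lck. It was 0.51 for Lcp2, 0.46 for Prkcq and 0.31 for Fyn. The highest values of Lck, Lat, Zap70 and Prkcq were all in thymic DN3 libraries and the lowest of Lck, Lat and Prkcq in DN2a libraries. For Prkcq the margin at the top was small, at 50.9 against 50.7 FPKM in a fetal liver control. Fyn was highest in a fetal liver control and Lcp2 in the bone marrow library labelled knockout. When the 18 groups were ordered by their mean level, neighbouring groups overlapped in 11 to 13 of 17 places for each gene.

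**Figure D1:**
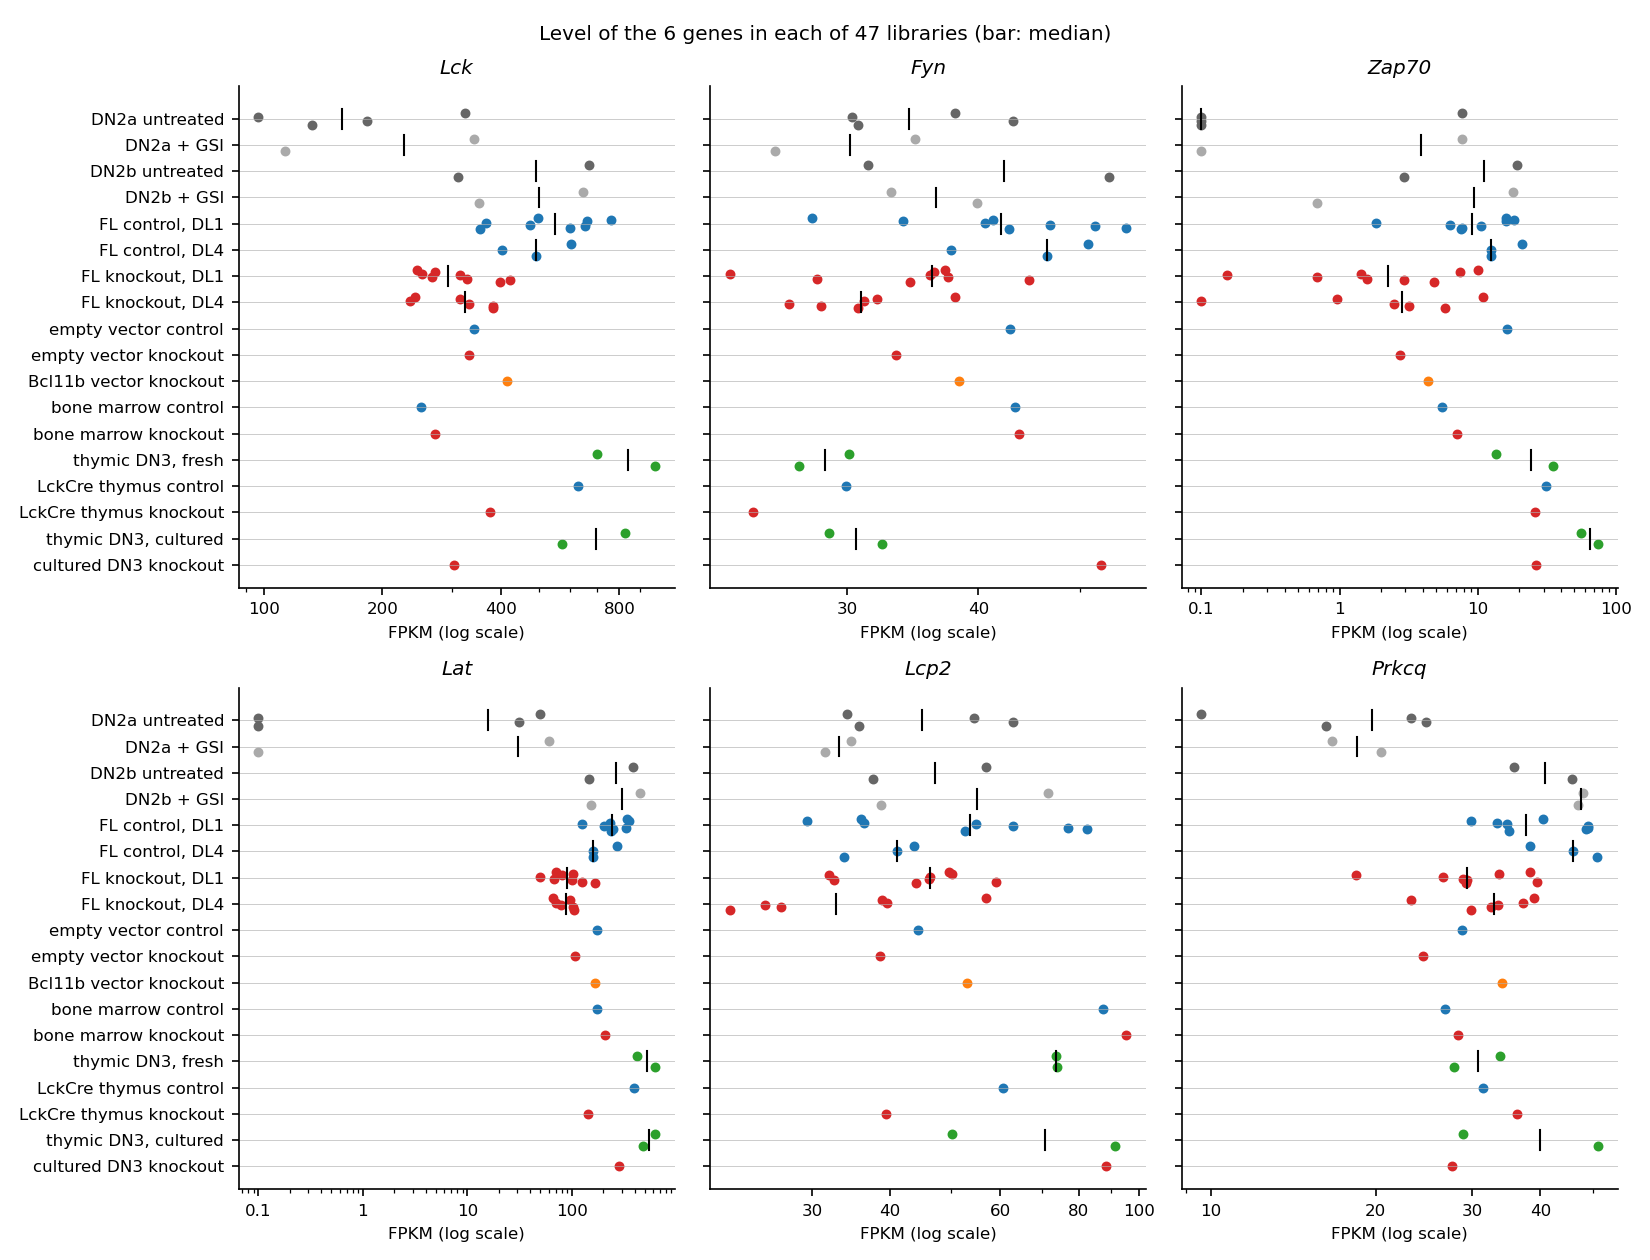
FPKM (log scale, x axis) of each of the 6 genes in the 47 libraries, by group (y axis). Points are libraries and black bars are group medians. Lck, Zap70 and Lat spread from low values in DN2a to high values in thymic DN3 libraries, while Fyn and Lcp2 show no such order.

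Lat stood at the 0.1 floor in 3 libraries, DN2a replicates 2 and 4 and GSI-treated DN2a replicate 2. In the same 3 libraries Thy1, a T-lineage surface protein with a median of 478 FPKM over all libraries, and the receptor chains Cd3e and Cd247 were also listed at 0.1, while beta-actin (Actb) stood at 1963 to 2829 FPKM. Zap70 was at the floor in those 3 libraries, in DN2a replicate 3 and in knockout replicate 3 on OP9-DL4. Whether a floor value stands for absent RNA or for a failed estimate was not tested.

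The Bcl11b-deficient fetal liver precursors had less of the receptor-proximal machinery than the controls: 5 of the 6 genes were called lower and none higher. The decrease was deepest for Zap70 and Lat, intermediate for Lck, and shallow for Fyn and Prkcq, while Lcp2 did not pass the test. Over all 12678 genes tested, 7.1% were called lower and 9.8% higher (limma with Benjamini-Hochberg adjustment over all genes, adjusted p under 0.05, stroma and IL-7 as covariates). Differences are on the log2(FPKM + 1) scale with their SE, which understates the change of genes near the floor, and the median of all genes was 0.04.

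Lck, the Src kinase tied to the coreceptors, stood at 235 to 421 FPKM (median 315) in the 14 knockout libraries and at 353 to 762 FPKM (median 496) in the 11 controls. In 10 of the 14 knockout libraries it was below every control, and 4 overlapped. The means were 313 ± 63.1 FPKM (SD, n = 14) and 533 ± 133 FPKM (SD, n = 11), a difference of -0.74 (SE 0.14, adjusted p 0.000242). Fyn, the other Src kinase of T cells, stood at 23.2 to 44.7 FPKM (median 33.2) in the knockout and 27.8 to 55.3 FPKM (median 42.8) in the controls. These ranges overlapped broadly, with 2 of 14 knockout libraries below every control. The fitted difference was -0.36 (SE 0.11, adjusted p 0.0249), from means of 33.1 ± 5.66 FPKM (SD, n = 14) and 43.2 ± 8.14 FPKM (SD, n = 11). It was lost without control replicate 1 on OP9-DL4 (adjusted p 0.0673), without control replicate 3 there (0.0569), and with libraries of 1 start date averaged (0.0552).

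Zap70 had the largest difference of the 6. It stood between the floor and 10.9 FPKM (median 2.7) in the knockout and between 1.84 and 21.1 FPKM (median 12.4) in the controls. The ranges overlapped, since the lowest control, day 9 of a culture on OP9-DL1, lay under 8 of the 14 knockout libraries. Means were 3.75 ± 3.58 FPKM (SD, n = 14) and 11.8 ± 5.74 FPKM (SD, n = 11), a difference of -1.67 (SE 0.35, adjusted p 0.00124).

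The adaptor Lat stood at 49.7 to 168 FPKM (median 87.7) in the knockout and 126 to 353 FPKM (median 236) in the controls. It separated the groups best of the 6, with 12 of 14 knockout libraries below every control. Its means were 91.8 ± 29.9 FPKM (SD, n = 14) and 241 ± 76.4 FPKM (SD, n = 11), a difference of -1.34 (SE 0.17, adjusted p 2.74e-06). The adaptor Lcp2, which LAT brings to the membrane through Gads, stood at 22.2 to 59.1 FPKM (median 41.8) in the knockout and 29.5 to 82.4 FPKM (median 43.6) in the controls. Its ranges overlapped almost throughout, and the difference of -0.21 (SE 0.17, adjusted p 0.44) was not called. Prkcq stood at 18.4 to 39.4 FPKM (median 31.2) in the knockout and 29.9 to 50.7 FPKM (median 40.4) in the controls. In 6 of 14 knockout libraries it was below every control. The means were 31.3 ± 6.12 FPKM (SD, n = 14) and 41.3 ± 7.47 FPKM (SD, n = 11), a difference of -0.42 (SE 0.12, adjusted p 0.0125).

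In 9 cases a knockout and a control library carried the same title date and were grown alike. Zap70, Lat and Prkcq were lower in the knockout in 9 of 9 pairs, which held for 3.35% of all genes tested, and Lck, Fyn and Lcp2 in 8 of 9. Lck was higher in the knockout (397 FPKM) than in the control (353 FPKM) in the pair of replicates 8 on OP9-DL1. Fyn (27.8 in the control, 37.2 FPKM in the knockout) and Lcp2 (35.9 and 49.7 FPKM) were both higher in the knockout of the pair of replicates 1, a reduced IL-7 culture. With the 9 pairs as a block, Lck (-0.59, adjusted p 0.0215), Zap70 (-1.6, 0.00725), Lat (-1.3, 0.00181) and Prkcq (-0.55, 0.00687) were still called and Fyn was not (-0.39, 0.0566). With the libraries of 1 start date averaged into 7 pairs, 3 genes were called, Zap70 (-1.52, adjusted p 0.0193), Lat (-1.2, 0.00703) and Prkcq (-0.48, 0.0478), and Lck was not (-0.53, 0.0823). Without the libraries in which Zap70, Lat, Cd3e or Cd247 stood at the floor, a subset of 20 libraries chosen after seeing the data and in part by the values of Zap70 itself, the 3 called genes were Lck, Zap70 and Lat, and Fyn (adjusted p 0.12) and Prkcq (0.144) were not called. In the 4 pairs whose titles give knockout and control the same stage, 3 of them with 1 common start date, all 6 differences were negative and Lat alone was called (-1.47, SE 0.33, adjusted p 0.0458). The others ran from -0.48 (Fyn, SE 0.21, adjusted p 0.42) to -1.7 (Zap70, SE 0.45, adjusted p 0.0963).

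**Figure D2:**
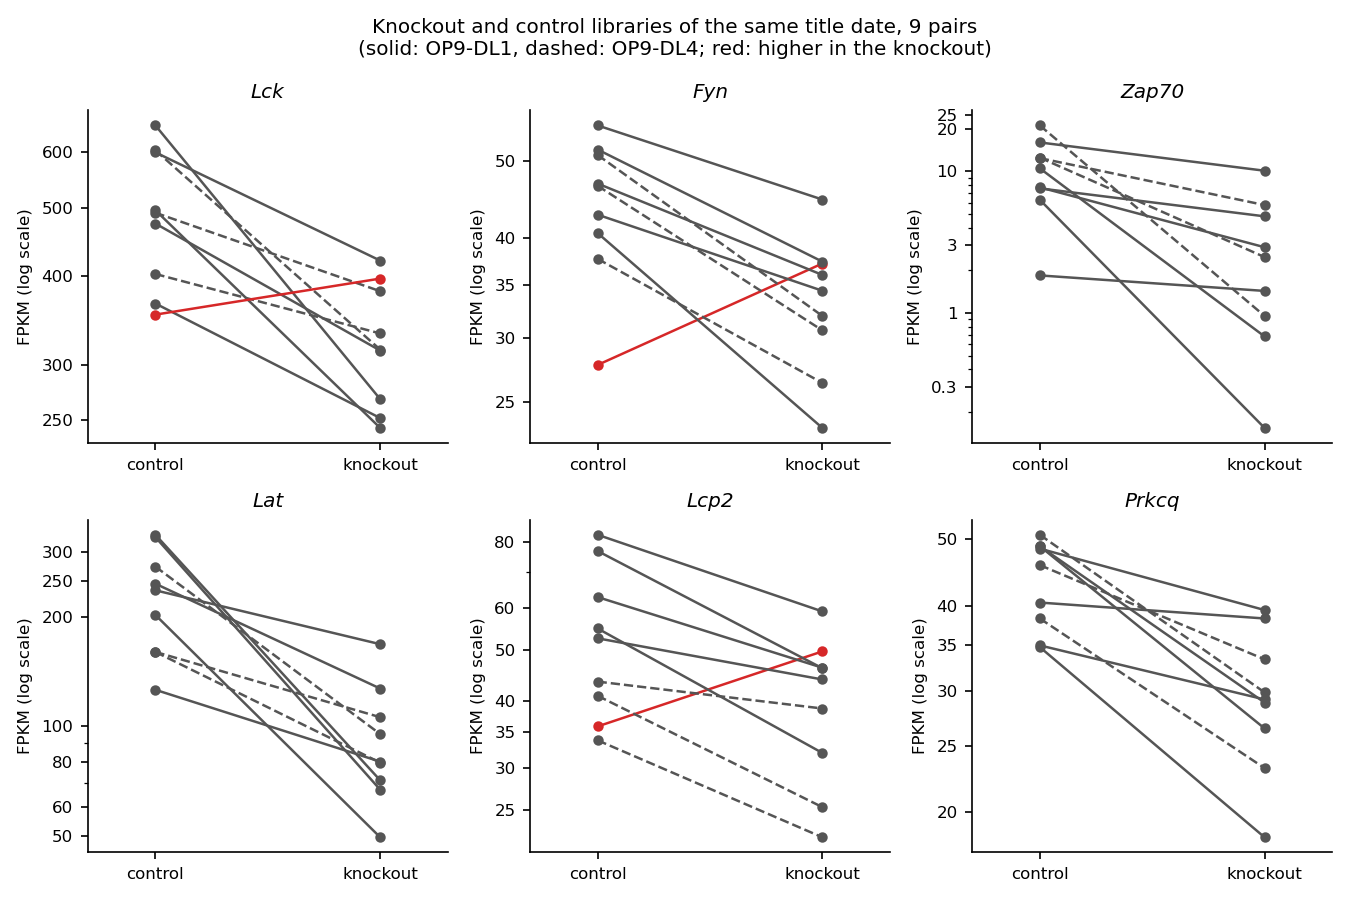
FPKM (log scale, y axis) of each gene in control and knockout libraries of the same title date (x axis), 9 pairs joined by lines. Solid lines are OP9-DL1 and dashed lines OP9-DL4, and red marks the pairs in which the knockout was higher, 1 pair each for Lck, Fyn and Lcp2.

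Control and knockout libraries on OP9-DL1 of days 9, 10 and 12 have title dates that fit 1 common start, and were read as 1 culture of each genotype. In the control culture Lck stood at 366, 475 and 654 FPKM on those days, Zap70 at 1.84, 6.3 and 10.5 FPKM, and Lat at 126, 202 and 330 FPKM. In the knockout culture Lck stood at 252, 314 and 268 FPKM, Zap70 at 1.43, 0.154 and 0.682 FPKM, and Lat at 80.1, 49.7 and 67.1 FPKM. The control values of these 3 genes were higher at each later harvest, and the knockout values were not, so that the gap in FPKM was wider on day 12 than on day 9 for all 3. The other 3 genes were higher on day 12 than on day 9 in both cultures. Their gap in FPKM was also wider on day 12 than on day 9 for Lcp2 and Prkcq, and narrower for Fyn. Fyn stood at 40.6, 46.8 and 51.6 FPKM in the control culture and at 23.2, 36 and 37.4 FPKM in the knockout culture. Lcp2 stood at 54.9, 62.9 and 76.8 against 32, 46.3 and 46.2 FPKM, and Prkcq at 34.8, 48.8 and 48.8 against 18.4, 26.5 and 28.9 FPKM. A second set of knockout libraries with a common start, of days 9 and 12, had 327 and 421 FPKM of Lck, 1.59 and 2.91 of Zap70 and 101 and 127 of Lat, higher on the later day. These would be 3 cultures in all, and no test was made.

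Neither stroma nor IL-7 was found to change the difference for any of the 6 genes. On OP9-DL4 alone, Lck, Zap70 and Lat did not overlap between 6 knockout and 3 control libraries, as held in the same direction for 4.09% of all genes tested. In a fit of these 9 libraries Lat alone was called (-1.2, SE 0.21, adjusted p 0.0137), and Lck (-0.69, 0.11) and Zap70 (-2.22, 0.0768) were not. The interaction with stroma was called for 0% of genes, with 255 at an unadjusted p under 0.05, and for Zap70, the largest of the 6, it was -0.93 (SE 0.75, adjusted p 1). The interaction with IL-7 was called for 0.702% of genes and for none of the 6. It was largest for Lcp2 at 0.82 (SE 0.34, adjusted p 0.325), whose difference was 0.2 in reduced IL-7 alone, and for Lat at -0.71 (SE 0.37, adjusted p 0.424). Lat stood at 65.8 to 102 FPKM in the 4 knockout libraries and at 274, 335 and 353 FPKM in the 3 control libraries of reduced IL-7. In standard IL-7 it stood at 49.7 to 168 FPKM (median 90.7, 10 libraries) and 126 to 330 FPKM (median 218, 8 libraries). Nearly all reduced IL-7 libraries of this comparison, and none in standard IL-7, had the earliest title year. IL-7 level and year therefore cannot be told apart here.

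Around these 6 genes, the receptor chains were lower in the knockout and the B-cell and myeloid counterparts of the 6 were higher. All 5 of the receptor chains Cd3d, Cd3e, Cd3g, Cd247 and Ptcra, whose phosphorylated tails or pairing carry the signal to Lck and Zap70, were lower. Cd3e fell by 3.84 on the log2 scale (SE 0.51, adjusted p 3.85e-06), from 107 ± 46.2 FPKM (SD, n = 11) in the controls to 15.6 ± 17.8 FPKM (SD, n = 14). All 5 tested genes of the list of B-cell and myeloid counterparts were higher. These were Clnk, an adaptor of the SLP-76 family (2.54, adjusted p 9.51e-08), the Src kinase Lyn (1.09, 8.83e-08), the Tec kinase Btk (1.09, 4.99e-05), the kinase Syk (0.78, 0.000105) and the LAT-related adaptor Lat2 (0.76, 0.00357). Clnk stood at 13.3 to 36.2 FPKM in the 14 knockout libraries and between the floor and 9.85 FPKM in the 11 controls, without overlap, as did 1.21% of all genes in that direction. Over 44 fits of this comparison Clnk was called in 44, Lyn in 43, Syk in 40, Btk in 39 and Lat2 in 35. With the 9 pairs as a block 4 of the 5 counterparts were called, and the 5 receptor chains all were. In the 4 pairs of equal title stage, 2 of the 5 counterparts and 3 of the 5 chains were called. Mean Btk, Lyn, Syk and Lat2 were 25.2, 21.6, 42.4 and 18.4 FPKM in the knockout. They were 40.3, 23.4, 46.2 and 37.5 FPKM in untreated DN2a libraries with Bcl11b intact. Clnk went the other way, at 23 FPKM in the knockout and 8.57 FPKM in DN2a. Deletion and sorted stage cannot be told apart for these genes.

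The same list held genes that mast cells, NK cells and myeloid cells also use, and markers of NK and innate lymphoid cells moved with it. Of 5 such markers 4 were tested and 4 were higher in the knockout (Tyrobp, Fcer1g, Klrd1 and Il2rb). The 5 summed to 436 to 1020 FPKM in the knockout and 19.2 to 189 FPKM in the controls. Their sum was 248 to 427 FPKM in untreated DN2a libraries with Bcl11b intact. Its largest parts in the knockout were Fcer1g and Tyrobp, with means of 308 and 264 FPKM. Ncr1, a defining NK receptor, was under 1 FPKM in all of these libraries. None of the tested myeloid markers (3), stromal markers (4) and erythroid markers (2) was called. The part of those cell types in the differences above was not tested.

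**Figure D3:**
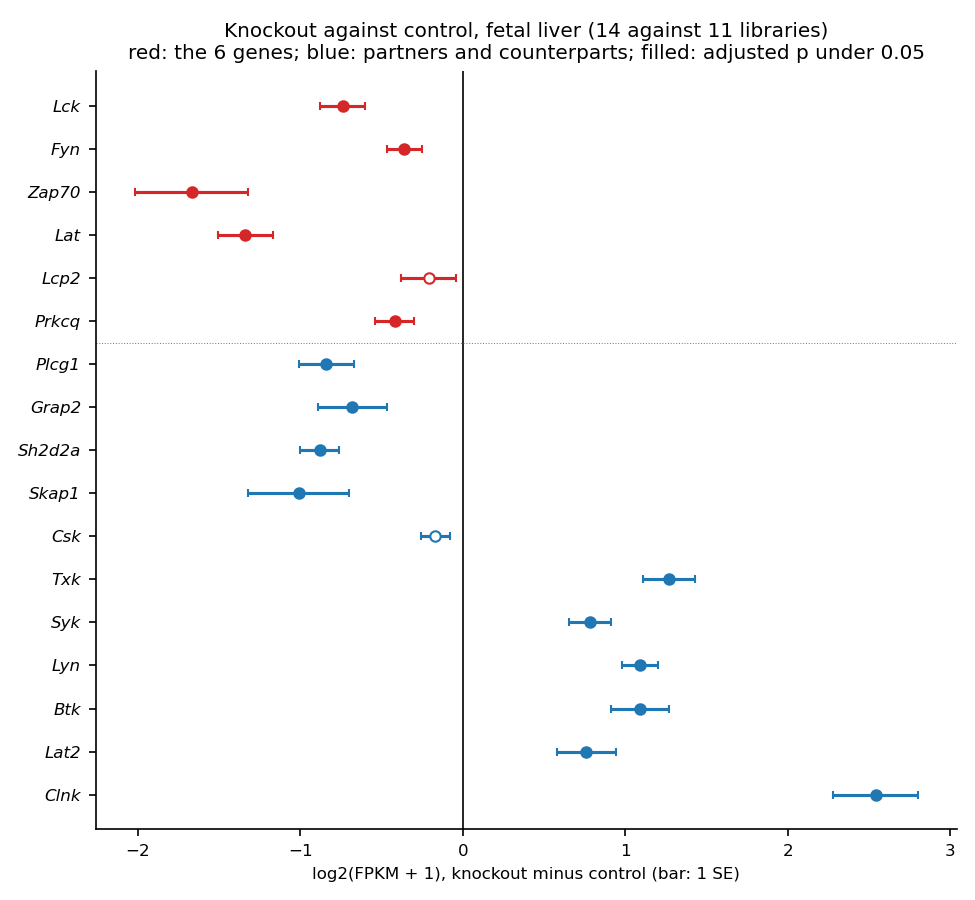
Difference of log2(FPKM + 1), knockout minus control (x axis), with 1 SE, for the 6 genes (red) and 11 partners and counterparts (blue) in 14 against 11 fetal liver libraries. Filled points have an adjusted p under 0.05. Zap70 and Lat lie furthest to the left among the 6, and Clnk, at 2.54, furthest to the right.

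Among the other lists the calls were mixed. Of 11 adaptors and effectors bound by LAT or SLP-76, 4 were lower (Skap1 -1.01, Sh2d2a -0.88, phospholipase C gamma 1 gene Plcg1 -0.84, and Gads gene Grap2 -0.68) and 1 was higher (Fyb, 0.40). Of 5 Tec-family and control kinases 2 were higher, Txk (1.27, adjusted p 1.33e-06) and Syk. Of 5 transmembrane adaptors related to LAT, Sit1 was lower (-0.94) and Lat2 higher, and of 3 other Src kinases tested Lyn was higher. Of 13 negative regulators, Cd5 (-0.95), Ubash3a (-0.85) and Sla2 (-0.55) were lower, and Ubash3b (0.63) and the phosphatase Ptpn6 (0.34) higher. Of 9 genes downstream of PKC-theta and diacylglycerol, Nfatc2 was lower (-1.54) and Nfkb1 higher (0.38), and of 7 other PKC genes Prkcb was lower (-1.26) and Prkca higher (0.51). None of 8 coreceptors and co-stimulatory receptors was called, the 2 most abundant being Cd27 (-0.31) and Cd8b1 (0.09). Counted together, 11 of 68 tested pathway genes were higher and 15 lower, with a median of -0.16. With the 7 culture pairs as a block these counts were 5 and 10.

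Syk and Zap70 were set side by side, since FPKM is scaled by transcript length. The authors' batch adjustment could have moved either gene, so small gaps between them carry little weight. Syk stood above Zap70 in 39 of the 47 libraries. In the fetal liver knockout Syk was at 32.4 to 58.3 FPKM (median 41) and above Zap70 in each of the 14 libraries, and in the controls it was at 10.5 to 32.6 FPKM (median 24.3) and below Zap70 in 2 of 11. Both of those controls were replicates 1, in reduced IL-7. In untreated DN2a libraries Syk was at 43.2 to 52.5 FPKM and Zap70 at the floor in 3 of 4. In the cultured thymic DN3 controls Zap70 was at 56.4 and 74.1 FPKM and Syk at 14.1 and 20 FPKM.

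**Figure D4:**
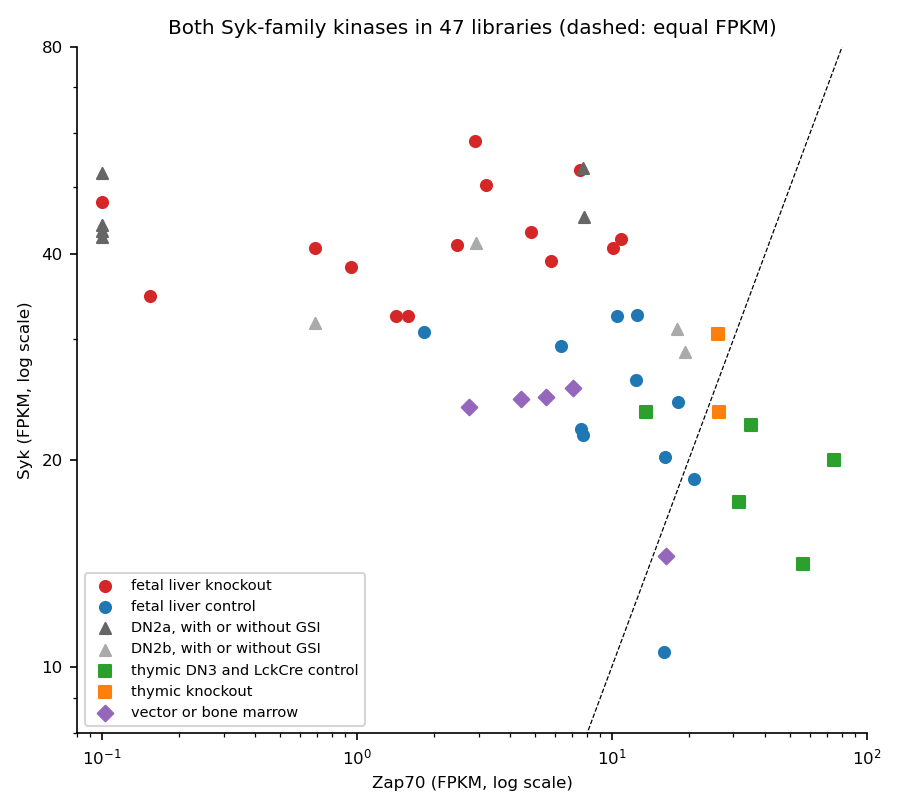
Zap70 (x axis) against Syk (y axis), both in FPKM on log scales, in the 47 libraries. Colours and symbols mark the groups, and the dashed line marks equal FPKM. The 14 fetal liver knockout libraries all lie above the line, with Syk at 32.4 to 58.3 FPKM.

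In unmanipulated fetal liver cultures, DN2a libraries had less Lat, Prkcq and Lck than DN2b libraries, but none of the 6 genes passed the test with 4 against 2 libraries. Lat stood at 49.2, 0.1, 31.6 and 0.1 FPKM in DN2a replicates 1 to 4 and at 384 and 147 FPKM in the DN2b libraries. Prkcq stood at 9.6, 23.2, 24.7 and 16.2 FPKM in DN2a and at 35.8 and 45.6 FPKM in DN2b. Lat and Prkcq did not overlap between the stages, as held in this direction for 27.1% of all genes, with differences of -5.16 (SE 1.7, adjusted p 0.0834) and -1.17 (SE 0.36, adjusted p 0.0719). Lck stood at 325, 96.8, 183 and 132 FPKM in DN2a and at 669 and 311 FPKM in DN2b, overlapping through DN2a replicate 1 (-1.45, SE 0.5, adjusted p 0.0927). Zap70 stood at 7.75 FPKM in DN2a replicate 1, at the floor in the other 3, and at 19.3 and 2.93 FPKM in DN2b (-2.27, SE 1, adjusted p 0.162). Fyn (-0.21, adjusted p 0.586) and Lcp2 (-0.03, 0.951) differed by less than their SE. Over 13364 genes tested 9.23% were called lower in DN2a and 4.23% higher, and after quantile normalization 567 genes were lower and 662 higher, against 1234 and 565 without it. These counts rest on single libraries, with 29 lower and 31 higher without DN2b replicate 1 (the library titled DN3), and 141 and 93 without DN2a replicate 4. With the 2 title dates as a block, Lck (-1.36, adjusted p 0.0455) and Lat (-5.01, 0.0252) were called, and without DN2a replicate 1, Lck (-1.77, 0.046) and Zap70 (-3.02, 0.0438).

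Of the 68 pathway genes tested between these stages, 15 were lower in DN2a and 4 higher. The lower ones included Cd3e (-5.27, adjusted p 0.0334), Cd247 (-5.18, 0.0212), Sh2d2a (-3.03, 0.0306), Dgka (-2.81, 0.0163) and Plcg1 (-1.22, 0.034), and the higher ones included Btk (1.45, 0.043), Lat2 (1.47, 0.0256) and Nfkb1 (1.06, 0.0196). Leaving out DN2b replicate 1, the library titled DN3, or DN2a replicate 4, the day 4.5 library, left 1 lower and 0 higher. The myeloid marker Mpo was higher in DN2a (46.2 ± 7.18 FPKM, SD, n = 4) than in DN2b (5.75 ± 7.16 FPKM, SD, n = 2), with an adjusted p of 0.0254, and the 4 myeloid markers measured summed to 48.1 to 65.4 FPKM against 7.48 to 18.1 FPKM. The part of myeloid cells in these differences was not tested.

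By the protocol the knockout cells were sorted as DN2a, so their levels were also set against DN2a libraries with Bcl11b intact, on OP9-DL1 and standard IL-7 (7 against 4 libraries, a fit with other control libraries than the one above but with the same knockout libraries). Of these 7 knockout libraries 1 is titled DN2a, 5 DN2 and 1 DN2b, so the stages may not match. The knockout cultures had also received a Cre retrovirus, while the DN2a cultures were unmanipulated. They were of a later title year and, where days are given, harvested on later days. Deletion, vector, date and culture time therefore cannot be told apart in this comparison. Lat and Lck were higher in the knockout than in these DN2a cells, and the other 4 genes were not called. Lat stood at 49.7 to 168 FPKM (median 101) in the 7 knockout libraries, above the 0.1 to 49.2 FPKM of all 4 DN2a libraries, as held in this direction for 6.26% of all genes. The difference was 3.81 (SE 0.93, adjusted p 0.0158), and 9.67% of 12979 genes were called higher and 7.25% lower. Lck stood at 252 to 421 FPKM (median 314) in the knockout and overlapped DN2a replicate 1, with 3 of 7 libraries above all 4 (0.92, SE 0.27, adjusted p 0.0332). Prkcq (0.69, adjusted p 0.0642), Zap70 (0.71, 0.443), Fyn (-0.06, 0.836) and Lcp2 (-0.06, 0.874) were not called. Neither call held without DN2a replicate 2 (Lat 2.95, adjusted p 0.0502, and Lck 0.113) or without DN2a replicate 4 (0.0568 and 0.108), the DN2a libraries with Lat at the floor. The call on Lck also ended without DN2a replicate 3 or without any 1 of knockout replicates 6, 7 and 8. Prkcq was called without knockout replicate 3 (0.8, adjusted p 0.032) or DN2a replicate 3 (0.86, 0.0419).

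Of 68 pathway genes in that comparison, 17 were higher in the knockout and 2 lower. The higher ones included Cd247 (4.59, adjusted p 0.00043), Sh2d2a (2.06, 0.00271), Grap2 (2, 0.0383), Txk (1.32, 0.00614) and Clnk (1.16, 0.00478), and the lower ones were Ubash3a (-1.04, 0.00355) and Lat2 (-0.52, 0.0401). The call on Lat2 ended without any 1 of knockout replicates 2 to 5 or any 1 of the 4 DN2a libraries. The 4 myeloid markers summed to 9.02 to 44.6 FPKM in the 7 knockout libraries and to 48.1 to 65.4 FPKM in DN2a, with Csf1r, Lyz2 and Mpo called lower. Their part in the differences was not tested.

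Fresh thymic DN3 cells had more Lat and Zap70 than fetal liver DN2b controls in standard IL-7 (3 libraries, 1 of them the LckCre control, against 5). Lat stood at 422, 621 and 392 FPKM in the DN3 libraries and at 160 to 246 FPKM in the 5 DN2b libraries, with no overlap, as held for 12.7% of all genes in this direction. The difference was 1.2 (SE 0.24, adjusted p 0.00848), and 7.95% of 13395 genes were called higher and 5.23% lower. Zap70 stood at 13.6, 35.2 and 31.5 FPKM in DN3 and at 7.58 to 16.1 FPKM in DN2b, overlapping through fresh replicate 1 (1.13, SE 0.33, adjusted p 0.043). Its call ended without the LckCre library, fresh replicate 2, control replicates 2 or 3 on OP9-DL4 or control replicate 8 on OP9-DL1, with no filter (adjusted p 0.0585), and after quantile normalization (0.142). Fyn went the other way, at 30.1, 27 and 29.9 FPKM in DN3 and 33.9 to 55.3 FPKM in DN2b. It did not overlap, as held for 7.11% of all genes in this direction, and was called after quantile normalization (-0.69, adjusted p 0.0236) but not without it (-0.54, 0.0815). Lck (0.63, adjusted p 0.154), Lcp2 (0.56, 0.193) and Prkcq (-0.43, 0.161) were not called, though Lcp2 was without control replicate 7 on OP9-DL1 (0.76, 0.0198), where 2173 genes were higher and 917 lower. Without normalization 1065 genes were higher and 701 lower, and after it 801 and 915.

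Of the 68 pathway genes, 8 were higher in thymic DN3 and 7 lower. Without control replicate 7 on OP9-DL1 these counts were 15 and 9, and without fresh replicate 1 they were 7 and 4. The largest increases were those of Skap1 (2.91, adjusted p 0.00258), Prkcb (2.02, 0.0121), Cd6 (1.6, 0.00937) and Cd3e (1.47, 0.00574), and Txk was lower (-1.7, 0.0031). The markers of later thymocytes Cd4, Cd8a and Cd8b1 were called lower in the fresh DN3 libraries, so the 2 sets also differed there. Tissue, culture and stage cannot be told apart in this comparison.

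Culture of thymic DN3 cells for 3 or 4 days on OP9-DL4 gave no called difference for the 6 genes (2 against 2 libraries). Zap70 stood at 56.4 and 74.1 FPKM after culture and at 13.6 and 35.2 FPKM in fresh cells, without overlap, as held for 11% of all genes in this direction (1.51, SE 0.43, adjusted p 0.171, with 0.426% of 12911 genes called higher). Without fresh replicate 2 it was called (2.17, adjusted p 0.000179), a fit in which the lone fresh library is assumed to vary like the others. Lat (0.1), Lck (-0.27), Fyn (0.1), Lcp2 (-0.12) and Prkcq (0.32) differed by less than their SE. The median difference of all genes was -0.23. The later thymocyte markers were higher after culture in 3 of 3 tested and stromal markers in 3 of 4 tested, and their part was not tested.

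Treatment with GSI for 12 h gave no detected difference in any of the 6 genes. Whether Notch activation was blocked in these libraries was not tested here. Across 4 treated and 4 untreated libraries no gene at all was called by limma (0% of 12783 genes in either direction, with 297 at an unadjusted p under 0.05). Lat stood at 60.4 and 0.1 FPKM in treated DN2a against 49.2 and 0.1 FPKM in the untreated libraries of the same dates, and at 447 and 154 FPKM in treated DN2b against 384 and 147 FPKM. Lck stood at 342 and 113 FPKM in treated against 325 and 96.8 FPKM in untreated DN2a, and at 646 and 351 FPKM against 669 and 311 FPKM in DN2b. For these 2 genes each treated library lay close to its untreated partner, within 0.29 on the log2 scale. The pairs differed more for Zap70 (-1.22 to 0, lower in 3 of 4), Lcp2 (-0.77 to 0.32) and Prkcq (-0.18 to 0.73). The differences were 0.14 (SE 1.46) for Lat, 0.1 (SE 0.49) for Lck, -0.33 (SE 1.07) for Zap70, 0.25 (SE 0.24) for Prkcq, -0.17 (SE 0.19) for Fyn and -0.09 (SE 0.26) for Lcp2, each with an adjusted p of 1. With the 4 date pairs as a block the SE were smaller, 0.08 for Lat and Lck and 0.22 for Zap70, and none of the 6 was called (limma, adjusted p 0.561 to 0.864). A difference in response between the stages was called by limma for 0% of genes, with 87 at an unadjusted p under 0.05. With 2 libraries in each set its SE was 3.14 for Lat and 2.28 for Zap70, so a difference between stages was not detectable here.

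The comparisons of single libraries carry no test, and a 2-fold difference is used as their threshold. In the LckCre thymus Lat stood at 142 FPKM in the knockout and 392 FPKM in the control (-1.46), the only 1 of the 6 past 2-fold, where 3.56% of all genes were lower by that much and 4.73% higher. Lck stood at 375 against 628 FPKM (-0.74) and Lcp2 at 39.4 against 60.6 FPKM (-0.61), while Zap70 (-0.27), Fyn (-0.28) and Prkcq (0.2) lay closer. In the cultured thymic DN3 knockout Zap70 (26.4 against a control mean of 65.3 FPKM, -1.26) and Lck (304 against 700 FPKM, -1.18) were past 2-fold, against 4.51% of genes lower and 10.3% higher. Lat (283 against 554 FPKM, -0.96) fell just short, and Fyn (52.3 against 30.6 FPKM, 0.75) went the other way. Lck was no longer past 2-fold after quantile normalization (-0.88). The control mean joins a day 3 and a day 4 culture, and only the latter shares title date and day with the knockout. Against that control alone, an alternative chosen after seeing the data, Zap70 was past 2-fold (26.4 against 74.1 FPKM, -1.45) and Lck was not (304 against 572 FPKM, -0.91).

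With an empty vector, the knockout library had 2.75 FPKM of Zap70 against 16.3 FPKM in the control (-2.21), past 2-fold as were 3.19% of genes in that direction and 5.07% in the other, and 107 against 174 FPKM of Lat (-0.7), but Lck was nearly equal (331 against 341 FPKM). Bcl11b delivered by vector to the knockout gave higher values of all 6 genes than the empty vector, as it did by any amount for 50.7% of all genes. Lat stood at 167 against 107 FPKM (0.64), Zap70 at 4.4 against 2.75 FPKM (0.53), Prkcq at 34 against 24.4 FPKM (0.46) and Lcp2 at 53 against 38.6 FPKM (0.45), with Lck at 0.33 and Fyn at 0.19. None reached 2-fold, which 1.64% of genes did downward and 1.87% upward, and Zap70 stayed below the 16.3 FPKM of the control with empty vector. In the bone marrow cultures the library labelled knockout differed from the control by 0.01 (Fyn) to 0.3 (Zap70), with Lat at 210 and 174 FPKM, where 1.39% of genes were 2-fold lower and 1.46% higher. Bcl11b itself stood at 45 FPKM in the bone marrow library labelled knockout and 44.9 FPKM in its control, so the level of the targeted gene did not separate these labels. Whether RNA of a deleted allele is still counted in this level was not tested, so it does not show whether deletion took place.

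Over the 47 libraries Lck, Lat and Zap70 were the most closely related of the 6, as a description of libraries that share cultures, groups and the authors' batch adjustment. Pearson's r of log2(FPKM + 1) was 0.87 for Lck and Lat (Spearman's rho 0.82), 0.74 for Lck and Zap70 (0.7) and 0.72 for Zap70 and Lat (0.78). These values include 3 libraries with Lat at the floor and 5 with Zap70 there, and how far those carry the r was not tested. Lck and Fyn, the 2 Src kinases, had an r of 0.1. For Lcp2 the highest r was with Fyn (0.41, rho 0.4) and the highest rho with Lat (r 0.33, rho 0.47). For Prkcq they were with Lat (r 0.52, rho 0.46) and with Lck (r 0.45, rho 0.47).

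Among 9098 genes with a mean of at least 5 FPKM, those most like each member over the 47 libraries were as follows. Lat was closest to the adaptor gene Sh2d2a (r 0.95), Thy1 (0.95) and Rapgef3 (0.94). Lat and Thy1 stood at the floor in the same 3 libraries, and how far these carry the r was not tested. Lck was closest to Carkd (0.91), Armc7 (0.9) and Sept1 (0.89), and Zap70 to the receptor segment Trbv1 (0.85), Endou (0.85) and Agpat3 (0.83). Prkcq was closest to Spata6 (0.85) and B4galt1 (0.8). Fyn (integrin gene Itgal 0.77, Snn 0.72 and Camk2d 0.7) and Lcp2 (Ctse, Soat1 and Hk1, each 0.79) had none above 0.79.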

How the data were processed

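Expression was measured by RNA-seq of poly(A)-selected RNA in 47 mouse libraries. The authors deposited 1 table of FPKM values, merged and adjusted with ComBat per the file headers. Per the submitters' processing notes the build was mm9. Which batches ComBat was given, and which programs aligned and quantified the reads, is not given in the sources used here. The adjustment could have moved differences either way. A further 16 columns belonged to no labelled sample and were not used. Depth is unknown, and 0.1 FPKM is the floor.

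From these values, log2(FPKM + 1) was fitted with limma 3.58.1 in R 4.3.3 (trended empirical Bayes, Benjamini-Hochberg adjustment over all genes, threshold 0.05) on genes reaching 1 FPKM in at least as many libraries as the smaller group held. The scripts were tested on simulated data. Covariates were stroma and IL-7 for the fetal liver fit and stage for the GSI fit. Single libraries were compared with no test. Members, 17 gene lists (72 pathway and 34 marker genes, 70 and 29 of them in the table) and tests were chosen with earlier results of these data known. Yes1, Blnk, Cd14, Pax5, Ms4a1 and Klf1 were not used here, a few other genes are not reported here, and Syk was matched by its Ensembl identifier. The genes named were the 6 members, up to 6 called genes each way per list (the 2 most abundant where none was called), and the 3 genes most like each member (2 for Prkcq). Promoter windows came from RefSeq.

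Pairing came from shared title dates in the labels. Deviations of paired libraries correlated between -0.052 and 0.528 over the 9 knockout pairs and between 0.657 and 0.714 over the 4 GSI pairs. Each library was left out in turn, and quantile normalization, a pseudocount of 0.1, robust variances, no filter, replicate blocks, subsets and other covariates were tried. The subset without floor libraries and the single date-matched control were chosen after seeing the data.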

Additional observations from a re-analysis of the deposited data

Results flagged for a closer look

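Zap70 in DN2a replicate 1, at 7.75 FPKM, stood far above the other 3 untreated DN2a libraries, which were all at the floor of 0.1 FPKM. It was the 1 value found in 24 checks for a library far from the rest of its group, and chance gives about 1 in 20 such checks. That rate is for values that are not tied. With the other 3 tied at the floor, a value above it is flagged whatever its size, so the rate does not apply here. DN2a replicate 1 also had the highest Lck (325 FPKM) and Lat (49.2 FPKM) and the lowest Prkcq (9.6 FPKM) of the 4. Its GSI-treated partner had 7.71 FPKM of Zap70.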

How the results depend on the processing

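Read depth is unknown, so no counting error is given, and a floor value gives no lower bound. Differences of Lat and Zap70 in DN2a rest on libraries at that floor. Groups of 2 to 4 libraries leave wide errors, and the ComBat adjustment was kept as deposited. Over all values of the 6 genes and all alternatives, 995 kept direction and side of the threshold, 50 lost the threshold, 10 gained it, 71 changed sign and 2 moved across 2-fold. The cause of these changes was not tested, except that the subsets and blocks below hold fewer libraries or residual degrees of freedom.

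In the fetal liver knockout comparison 5 of the 6 genes were called lower. With the 9 date pairs as a replicate block 4 were called, and with the 7 culture pairs as a replicate block 3. The number was 3 on OP9-DL1 alone and without floor libraries (chosen after seeing the data), 2 in the latest title year, 1 on OP9-DL4, in reduced IL-7, in the earliest title year and in pairs of equal title stage, and 0 in the middle title year. Leaving out 1 library gave 4 to 5. Lcp2, not called, changed sign in reduced IL-7 (0.2) and the earliest title year (0.35). Genes called higher and lower numbered 1242 and 900 over the whole table, against 659 and 623 with 9 pairs as a block, 501 and 353 with 7, 575 and 413 on OP9-DL1, 289 and 162 on OP9-DL4, 729 and 667 in standard IL-7, 336 and 94 in reduced IL-7, and 360 and 115, 169 and 101, and 453 and 325 in the 3 title years. In pairs of equal title stage they numbered 151 and 101.

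Between DN2a and DN2b no gene of the 6 was called, and 2 were with the 2 title dates as a replicate block (179 genes higher and 445 lower in the whole table, against 565 and 1234). A pseudocount of 0.1 gave 428 and 637. Leaving out 1 library gave 0 to 2 of the 6. Lcp2 changed sign without the library titled DN3 (0.26) and without the day 4.5 library (0.08). The block of 4 date pairs changed no call under GSI, and no block was fitted in the other comparisons.

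Between the knockout and DN2a 2 genes were called higher, and 0 to 3 with 1 library left out. Without DN2a replicate 4 the table held 704 higher and 456 lower calls, and without DN2a replicate 2 it held 767 and 544, against 1255 and 941. The alternative without floor libraries was not run here, since it left no DN2a library. Between fresh DN3 and DN2b 2 were called higher. This was 1 with no filter, 1 after quantile normalization (with 1 called lower), 1 without the LckCre library, and 1 to 3 with 1 library left out. Between cultured and fresh DN3 none was called, and 0 to 1 with 1 library left out. Calls there were 55 higher and 16 lower, against 0 and 0 without either cultured library, 402 and 524 without fresh replicate 2, 147 and 175 without fresh replicate 1, 39 and 4 with a pseudocount of 0.1, 1 and 0 with no filter, 30 and 1 after quantile normalization, and 92 and 47 with robust variances. For the IL-7 interaction they were 83 and 6, against 43 and 10 after quantile normalization.

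Some differences that were not called changed sign. Zap70 by IL-7 was 0.27 with a pseudocount of 0.1. After quantile normalization Fyn in GSI by stage was -0.04 and Lat in cultured against fresh DN3 -0.23. Lck in the cultured DN3 knockout kept its sign at -0.88 and was no longer past 2-fold, nor was it against the control of the same title date and day alone (-0.91, chosen after seeing the data). With 1 library left out, the stroma interaction ran from -0.04 to 0.24 for Lck, -0.16 to 0.13 for Lcp2 and -0.16 to 0.06 for Prkcq, and the IL-7 interaction of Zap70 from -0.62 to 0.35. DN2a against DN2b ran from -0.58 to 0.16 for Fyn and -0.33 to 0.26 for Lcp2. GSI ran from -0.25 to 0.44 for Lck, -0.99 to 0.44 for Zap70, -1.02 to 1.3 for Lat and -0.32 to 0.09 for Lcp2. GSI by stage ran from -0.95 to 0.78 for Lck, -0.36 to 0.38 for Fyn, -2.4 to 1.1 for Zap70, -2.9 to 2.9 for Lat and -0.65 to 0.54 for Prkcq. The knockout against DN2a ran from -0.13 to 0.04 for Fyn and -0.19 to 0.1 for Lcp2. Cultured against fresh DN3 ran from -0.18 to 0.38 for Lat, -0.55 to 0.3 for Lcp2 and -0.08 to 0.71 for Prkcq.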
